A study of Mus musculus with 6 samples.

Results

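The genes described here make, break down and respond to the cyclic nucleotides cAMP and cGMP. They were 41 named genes of the 35715 gene names on the array: 18 phosphodiesterases, 8 adenylyl cyclases, 2 subunits of soluble guanylyl cyclase, 5 subunits of protein kinase A (PKA), 2 cGMP-dependent protein kinases, 2 transcription factors of the CREB family, 2 cAMP-activated Rap exchange factors (Epac) and 2 A-kinase anchoring proteins. A probe belonged to the set where the gene name in the scanner files was exactly one of these names, which gave 68 probes. Of these, 64 probes, standing for all 41 genes, passed the scanner software's test against background on 3 or more of the 6 arrays and were tested.

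The arrays measured total RNA of the primary somatosensory cortex of C57BL/6 mice at postnatal day 7, with 3 samples in each of 2 groups. The control samples carried floxed Lhx2 alleles (Lhx2f/f) and were titled WT. The cKO samples carried the same floxed alleles together with Nex-Cre (Lhx2f/f;Nex-Cre), a Cre recombinase driven from the Neurod6 (Nex) locus in postmitotic cortical excitatory neurons, so that other cell types of the tissue keep intact alleles. The labels do not state whether each sample is a different animal, and p-values therefore measure the spread between these samples only.

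Adenylyl cyclases make cAMP when receptors coupled to stimulatory G proteins, or in some isoforms calcium and calmodulin, activate them, and soluble guanylyl cyclase makes cGMP in response to nitric oxide. Phosphodiesterases hydrolyse both messengers, and their families differ in substrate and in regulation. PKA, held near its targets by anchoring proteins, phosphorylates CREB and many other proteins, and in the developing somatosensory cortex cAMP signalling is known for its part in the refinement of thalamic input to layer 4.

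The results turned on a few probes of 60 bases. The first 30 bases of 7 of them are given, 5′ to 3′ as the scanner files hold them, to show which oligonucleotides gave the differences and how the probes of 1 gene are unlike each other.
Pde8b, brighter probe: gctttctattgtactgctgcgttatctaca
Pde8b, dimmer probe: agacggaaatccggggacagcatccaacag
Adcy8: ggagatatatgtgaagggcatcagtgaaca
Adcy7: acacttcctgacaaagtgattgttactgtg
Pde8a: atatctttaagcaaatggagaggaatgact
Pde7b, tested probe: tttgctattgactctatgccacattgggtc
Pde4d, second brightest probe: gcggaagaggaaagccagcctgaaacttgc
On mm9, the build of the files, the brighter Pde8b probe lay at chr13:95794492-95794551 and the dimmer probe at chr13:95855133-95855192, both on the minus strand and 60.6 kb apart. The brighter probe is listed in the files with curated RefSeq transcripts of Pde8b, and the dimmer probe with predicted ones only, 1 of which both probes share. Its GC content was 35%, against 55% for the dimmer probe. Whether the probes lie in coding or untranslated exons was not analysed here.

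The labels were checked first with Lhx2, the targeted LIM-homeodomain gene. Its probe (chr2:38224933-38224992) read 4.43, 4.55 and 4.77 in cKO replicates 1 to 3 and 3.49, 3.5 and 3.44 in control (log2 of the signal over each array's 75th percentile, the scale of all levels given here). The signal was thus higher, not lower, in the cKO arrays, by 1.1 on the log2 scale (SE 0.11, adjusted p = 0.088, limma). The labels do not say which exons recombination removes, and a probe outside them checks nothing. A probe of Gm3279 (chr6:55644473-55644532), near that of Neurod6 (chr6:55628006-55628065), at whose locus the Cre lies, had the smallest p of all probes, for which it was picked out. It read -1.27, -1.23 and -1 in the arrays labelled cKO, against -5.83, -5.84 and -4.89 in control, a difference of 4.35 (SE 0.26, adjusted p = 0.058, limma). Its bearing on the labels was not tested. Because of the Lhx2 values the cKO samples are referred to by their label, as arrays labelled cKO, and each direction rests on the labels.

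All 6 arrays lay on 1 slide, by the barcodes in the file headers. Each barcode also holds 2 numbers, read here as the side and position of the array, names that the headers do not give. The arrays labelled cKO were at position 4 on side 1 (replicate 1) and positions 1 and 2 on side 2 (replicates 2 and 3), and the controls at positions 1, 2 and 3 on side 1. Y-linked signal was present in control replicates 1 and 3 and in 0 of 3 arrays labelled cKO. A fit with a term for it therefore compares the arrays labelled cKO with control replicate 2 alone. A fit with a term for the side compares cKO replicate 1 alone with the 3 controls. Between 86.7% and 91.1% of spots were well above background on each array and 0 were saturated. Markers of excitatory cortical neurons, the cells in which Nex-Cre acts, were well above background (10 of 10), as the tissue label says. Of them 6 were higher and 4 lower in the arrays labelled cKO (4 and 1 with unadjusted p under 0.05), with a summed signal of 53.7 to 55.4 against 44.8 to 49.5 times the array's 75th percentile. Interneuron markers were lower in 10 of 10 (2 with unadjusted p under 0.05, 59.2 to 72 against 76.5 to 77.1). Of 8 layer 4 markers, 8 were lower in the arrays labelled cKO (7 with unadjusted p under 0.05, 28.6 to 37.2 against 42.3 to 46.9), as were 10 of 10 astrocyte markers (10, 99 to 118 against 140 to 163) and 10 of 10 microglial markers (9, 14.8 to 23.9 against 28.8 to 29.7). In none of the 12 marker lists was a marker present on the array below background on every array. The summed signals given here did not overlap between the groups. Nor did those of the oligodendrocyte lineage (125 to 144 against 149 to 184), thalamus (4.91 to 5.26 against 5.47 to 5.9) and hippocampus (24 to 30.1 against 21.8 to 23.7). Those of endothelial and mural cells, striatum, meninges and choroid plexus, and blood overlapped. The lists were chosen with earlier results of these data known, and 44.4% of all tested probes read lower, so the marker counts only describe the arrays. The part of these lists in the results below was not tested.

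Over all 50030 probes tested, 0% passed an adjusted p of 0.05, by limma with Benjamini-Hochberg adjustment, and so 0 of the 64 member probes did. At an unadjusted p under 0.05 the share was 12.5% of the member probes (8 of 64, 3 higher and 5 lower) and 6.8% of all probes (2.9% higher and 3.9% lower). The 8 include Pde8a, which passed the filter only through the control arrays, and with signal required on all 6 arrays the count was 7 of 63. The share of all probes under that stricter filter was not counted. For 13 member probes (20.3%, 5 higher and 8 lower) no array of one group lay within the range of the other, against 12.7% of all probes (6.82% higher and 5.89% lower). The 13 also include Pde8a. The members were chosen with earlier results of these data known, so neither share is read as a change particular to them. The 8 probes belonged to 6 genes, of which Pde8b, Pde8a, Pde7b and Pde4d are cAMP-specific phosphodiesterases and Adcy8 and Adcy7 are adenylyl cyclases. None belonged to another role. The median difference over the member probes was 0.00, with 32 probes higher and 32 lower, and that over all probes was 0.02, with 55.6% of them higher and 44.4% lower.

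**Figure D1:**
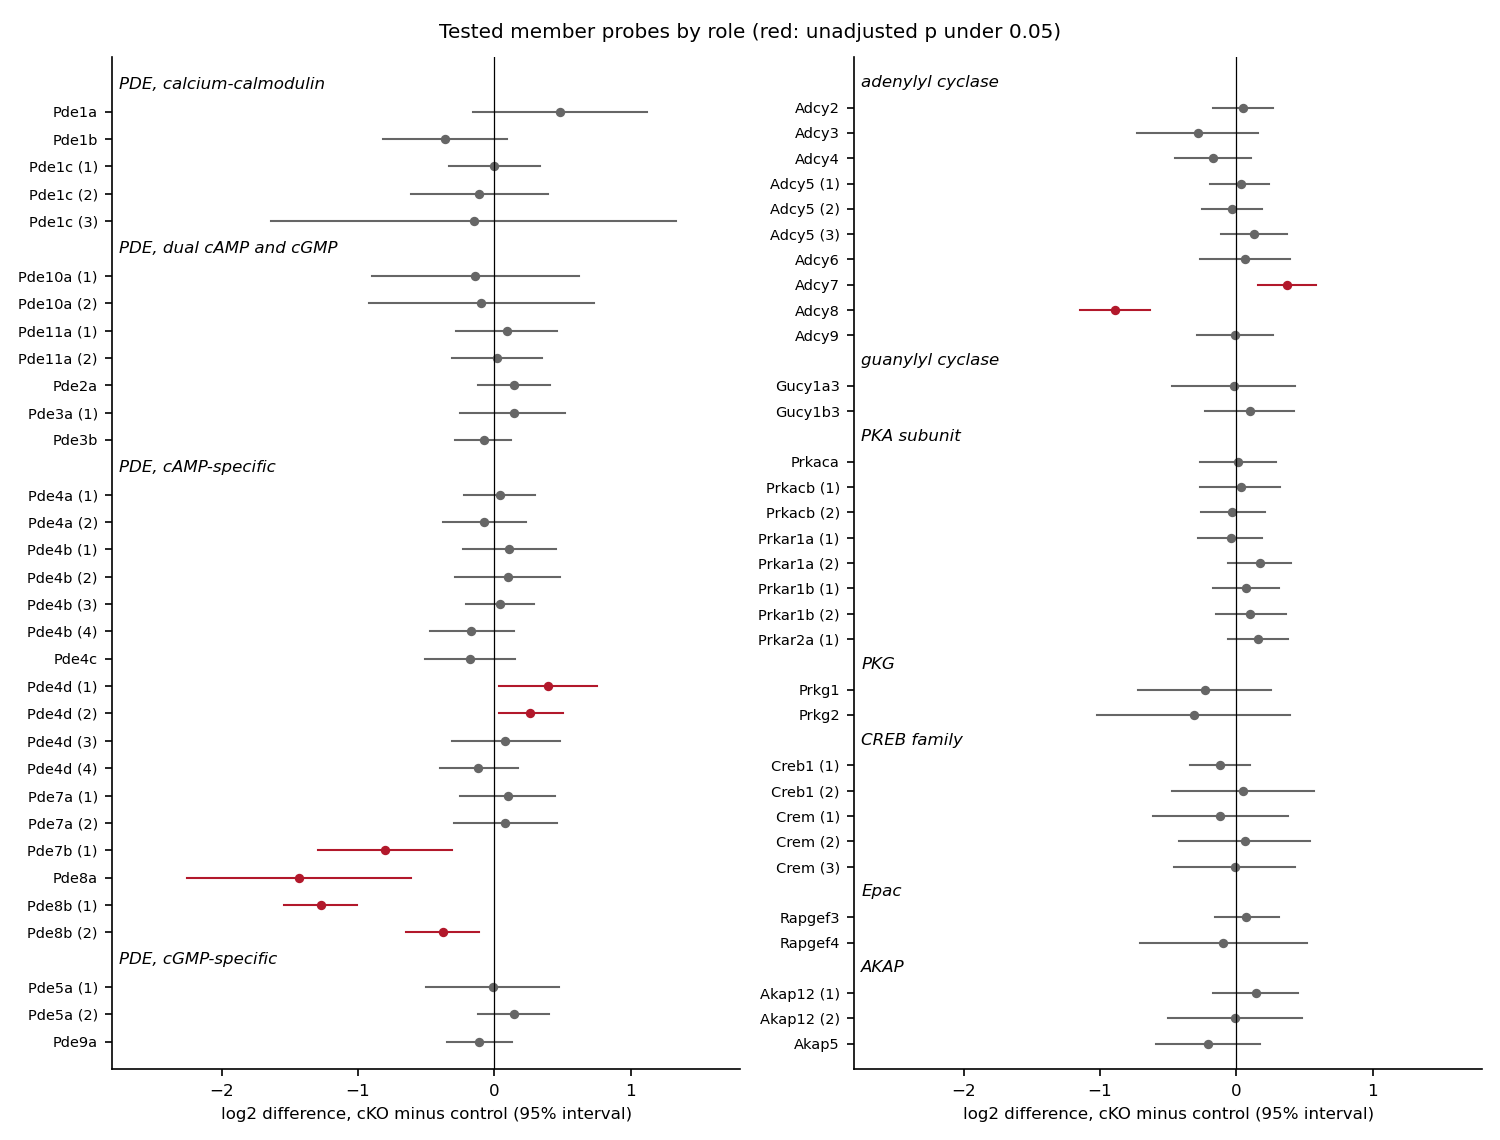
Log2 difference between the arrays labelled cKO and control (x axis) with its 95% interval for each of the 64 tested member probes, grouped by role; numbers in brackets order the probes of a gene from the brightest. The 8 red probes have an unadjusted p under 0.05 and lie within the cAMP-specific phosphodiesterases and the adenylyl cyclases, and 41 of the 64 intervals lie wholly between -0.5 and 0.5.

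Pde8b, a phosphodiesterase of high affinity for cAMP, differed most clearly. Its brighter probe read 0.34, 0.47 and 0.22 in cKO replicates 1 to 3 and 1.72, 1.63 and 1.5 in control. Every array labelled cKO was lower than every control array, and the gap between the groups was wider than the range within either. The mean was 0.34 ± 0.13 against 1.62 ± 0.11 (SD, n = 3 each), which is 2.42-fold lower (log2 difference -1.27, SE 0.11, 95% interval -1.54 to -1.01). Its unadjusted p of 1.2e-05 was the 6th smallest of all probes, and its adjusted p of 0.081 did not pass. In whole tissue, fewer cells that express a gene and less RNA per cell cannot be told apart.

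The dimmer Pde8b probe read -3.82, -4.06 and -4.06 in the arrays labelled cKO, against -3.73, -3.54 and -3.53 in control. The groups again did not overlap, with cKO replicate 1 and control replicate 1 the closest arrays. The difference was -0.38 (SE 0.11, 95% interval -0.65 to -0.11, unadjusted p = 0.013, adjusted p = 0.52), so both probes read lower, by unequal amounts. For the dimmer probe the difference was -0.19 with normexp background correction (unadjusted p = 0.062, limma). With a term for the side of the slide, which compares cKO replicate 1 alone with the controls, it was -0.22. The difference of the brighter probe exceeded that of the dimmer one by 0.89 on the log2 scale.

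The difference of the brighter Pde8b probe was similar across the slide. It was -1.25 between the arrays at position 1 (cKO replicate 2 and control replicate 1), -1.41 at position 2 (cKO replicate 3 and control replicate 2) and -1.28 between cKO replicate 1 and the mean of the controls on the same side. Against control replicate 2 alone, which a term for Y-linked signal leaves as the reference, it was -1.29. The probe passed with normexp background correction (adjusted p = 0.0056, limma). It also passed with variances that follow intensity and are estimated robustly (adjusted p = 0.0048). The differences were -1.23 and -1.27. Under these settings 91 and 119 of the 50030 probes passed.

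Pde8a, the other gene of that family, has 1 probe, which the files leave without a position in the genome. It was well above background on 3 of 3 control arrays, at -6.07, -5.82 and -5.67, and on 0 of 3 arrays labelled cKO, where it read -8.07, -6.65 and -7.12. The measured means differed by -1.43 (adjusted p = 0.41), but the signal in the arrays labelled cKO is only a bound. Taking the lowest signal well above background on each array in place of lower values, Pde8a was at least 1.06-fold lower. With normexp background correction the difference was -0.13.

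Pde7b, another cAMP-specific phosphodiesterase, read -4.75, -5.23 and -5.11 in the arrays labelled cKO, against -4.49, -4.36 and -3.85 in control at the probe that was tested (chr10:20119598-20119657, minus strand). The groups did not overlap, and control replicate 3 was the highest array. The difference was -0.80 (SE 0.20, unadjusted p = 0.0065, adjusted p = 0.43, limma). It was -0.28 with normexp background correction (unadjusted p = 0.054). With a term for the side of the slide, which compares cKO replicate 1 alone with the controls, it was -0.52. The other Pde7b probe was well above background on 2 of 6 arrays and was not tested.

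Pde4d, whose isoforms are the targets of rolipram together with those of Pde4a and Pde4b, had 4 tested probes spread over 834.9 kb of chromosome 13. The brightest (chr13:110745631-110745690) read 0.78, 1.11 and 0.94 in the arrays labelled cKO, against 0.67, 0.69 and 0.28 in control, a difference of 0.39 (SE 0.15, unadjusted p = 0.037, adjusted p = 0.68). The next (chr13:110741493-110741552) read -0.42, -0.27 and -0.38 against -0.54, -0.60 and -0.72, a difference of 0.26 (SE 0.10, unadjusted p = 0.034, adjusted p = 0.67). These neighbouring probes were higher in each array labelled cKO than in every control array. Without control replicate 3 they differed by 0.26 and 0.21 (unadjusted p = 0.092 and 0.082, limma). With a term for Y-linked signal, which leaves control replicate 2 alone as the reference, they differed by 0.25 and 0.24. With a term for the side of the slide, which compares cKO replicate 1 alone with the controls, they differed by 0.23 and 0.20. The mean of the 4 probes differed by 0.15. The probe at chr13:110051079-110051138 read -4.57, -4.24 and -4.50 against -4.23, -4.38 and -4.35, a difference of -0.12 (SE 0.12). The probe at chr13:109910773-109910832, which the files list with a cDNA clone and no RefSeq transcript, read -1.26, -1.24 and -1.35 against -1.26, -1.12 and -1.72, a difference of 0.08 (SE 0.17). Both of these overlapped between groups. Without control replicate 3, the lowest array of the last probe, its difference was -0.10.

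**Figure D2:**
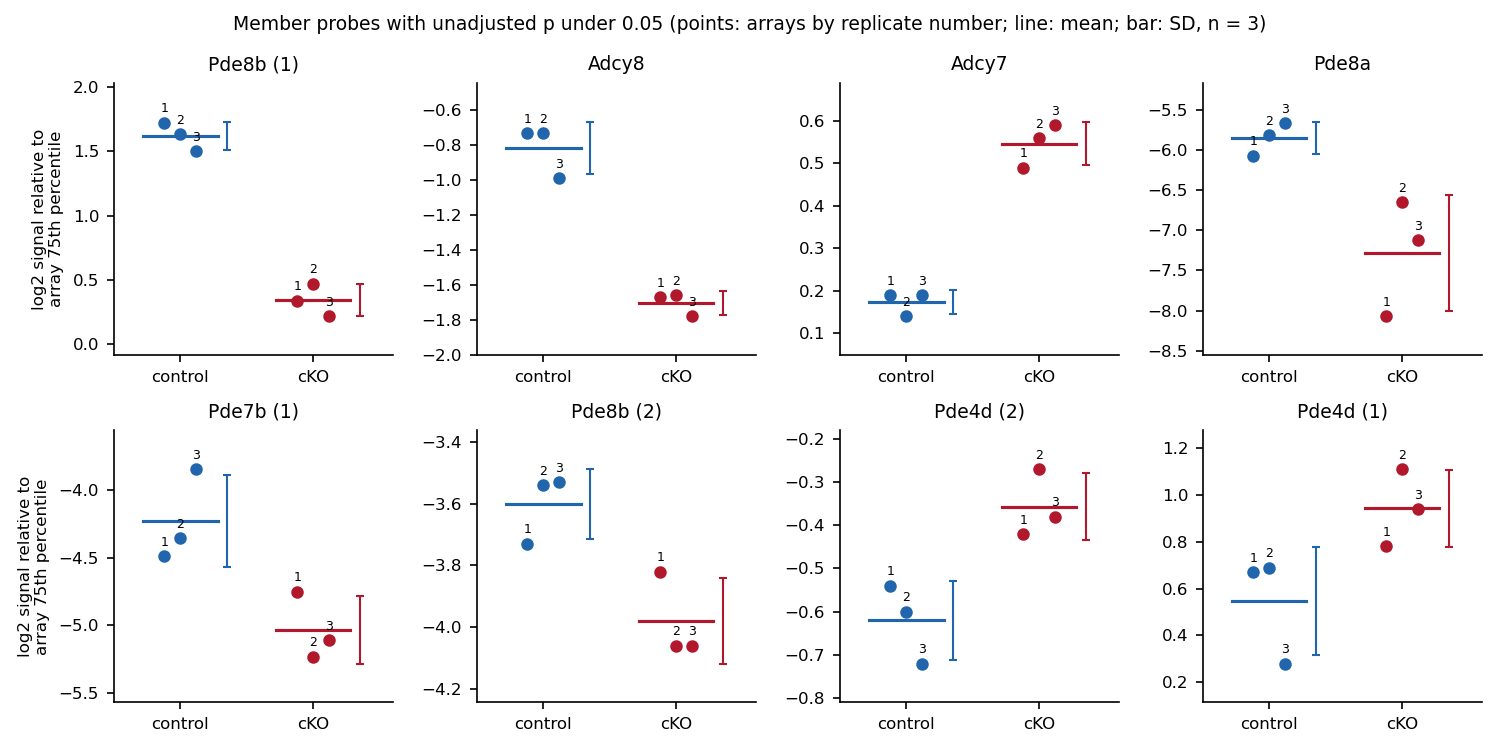
Level of each of the 8 member probes with an unadjusted p under 0.05 on each array, as log2 of the signal over each array's 75th percentile (y axes differ and do not start at 0); points carry the replicate number, lines are means and bars are SD, n = 3. In each panel the 3 control arrays (blue) and the 3 arrays labelled cKO (red) do not overlap, and only the lower group of the Pde8a panel is below background on all of its arrays.

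Among the adenylyl cyclases, Adcy8 was lower and Adcy7 higher. Adcy8, an isoform that calcium and calmodulin stimulate, read -1.67, -1.66 and -1.78 in the arrays labelled cKO, against -0.73, -0.73 and -0.99 in control (chr15:64530939-64530998, minus strand). The groups lay apart, with every array labelled cKO below the lowest control. Adcy8 was 1.85-fold lower (log2 difference -0.89, SE 0.11, 95% interval -1.15 to -0.63, unadjusted p = 0.00011, adjusted p = 0.11). It was -0.94 and -1.05 at slide positions 1 and 2 and -0.85 between cKO replicate 1 and the controls of its side. Like the brighter Pde8b probe, Adcy8 passed with normexp background correction (-0.77, adjusted p = 0.021, limma). It also passed with variances that follow intensity and are estimated robustly (adjusted p = 0.018).

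Adcy7, an isoform stimulated by G-protein beta-gamma subunits and known from blood and immune cells, read 0.49, 0.56 and 0.59 in the arrays labelled cKO, against 0.19, 0.14 and 0.19 in control (chr8:90853657-90853716). The spread within each group was small, and Adcy7 was 1.29-fold higher (log2 difference 0.37, SE 0.09, unadjusted p = 0.0041, adjusted p = 0.40). On the same arrays 10 of 10 microglial markers read lower, and 5 of 5 blood markers read higher (median difference 0.38, 0 with unadjusted p under 0.05, summed signal 172 to 478 against 219 to 359). Their part in the Adcy7 value was not tested. The other 8 cyclase probes, of Adcy2, Adcy3, Adcy4, Adcy5, Adcy6 and Adcy9, differed by -0.28 to 0.13. Adcy3, the cyclase of neuronal primary cilia, read -1.77, -1.91 and -1.88 against -1.15, -1.74 and -1.82, and its difference of -0.28 lay largely with control replicate 1. The 3 probes of Adcy5, the main striatal isoform, gave 0.03, -0.03 and 0.13. The soluble guanylyl cyclase subunits Gucy1a3 and Gucy1b3 differed by -0.02 (95% interval -0.47 to 0.43) and 0.10 (-0.23 to 0.42), with overlapping groups.

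The calcium-dependent and dual-substrate phosphodiesterases gave 0 of 5 and 0 of 7 tested probes with an unadjusted p under 0.05. So few probes do not set them apart from the 6.8% of all probes. Pde1a, a calcium- and calmodulin-dependent enzyme, had the largest positive difference of all member probes, 0.48 (SE 0.27, 95% interval -0.16 to 1.12), with 1.90, 1.38 and 1.06 against 1.20, 1.18 and 0.52 and overlapping groups. It was 0.25 without cKO replicate 1 and 0.26 without control replicate 3, where a Pde4d probe differed by 0.47 and 0.26. Pde2a, which cGMP stimulates, differed by 0.14 (SE 0.11), Pde3a by 0.14 (SE 0.16) at its tested probe and Pde3b by -0.08 (SE 0.09), without overlap in the last. The other Pde3a probe was not well above background on any array. Pde11a had 2 probes at 0.09 and 0.02, and Pde1c had 3 at 0.00, -0.11 and -0.15, the last with a 95% interval as wide as 1.49 on either side. Of the cGMP-specific enzymes, Pde9a differed by -0.11 (SE 0.10) and Pde5a by -0.01 and 0.14 at its 2 probes.

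Pde10a and Pde1b, both abundant in the projection neurons of the striatum, stood highest in 1 control array. The brighter Pde10a probe read 1.13, 1.38 and 1.52 in cKO replicates 1 to 3, 1.16 and 1.05 in control replicates 1 and 2, and 2.24 in control replicate 3. The next Pde10a probe read -0.45, -0.34 and -0.10, then -0.63 and -0.61, and 0.64 in control replicate 3. Pde1b read 2.71, 2.82 and 2.80 in cKO replicates 1 to 3, 2.90 and 2.93 in control replicates 1 and 2, and 3.58 in control replicate 3. For all 3 of these probes control replicate 3 was the highest of the 6 arrays. The remaining Pde10a probe was not well above background on any array.

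Without that array the Pde10a differences turned from -0.14 and -0.10 to 0.24 and 0.32 (unadjusted p = 0.15 and 0.055), and the Pde1b difference shrank from -0.36 to -0.14. Of the 12 striatal markers, with a summed signal of 11.1 to 14.5 in the arrays labelled cKO and 13.0 to 23.8 in control, several stood highest in the same array. Ppp1r1b, the PKA-regulated phosphatase inhibitor of striatal neurons, read 2.76 there, 0.79 and 0.77 in the other controls, and 1.67, 0.80 and 0.83 in the arrays labelled cKO. Rgs9 read 2.63 there against 1.5 and 1.39, Adora2a -0.44 against -1.32 and -1.17, and Six3 -2.49 against -4.26 and -3.93. Drd1 did not follow that pattern, with -0.29 against -0.30 and -0.38. All 12 striatal markers were well above background on at least 3 arrays, and their part in the Pde10a and Pde1b values was not tested. Adcy5, given above, did not share the pattern: its brightest probe read 2.05 in control replicate 3 against 2.17 and 2.13.

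**Figure D3:**
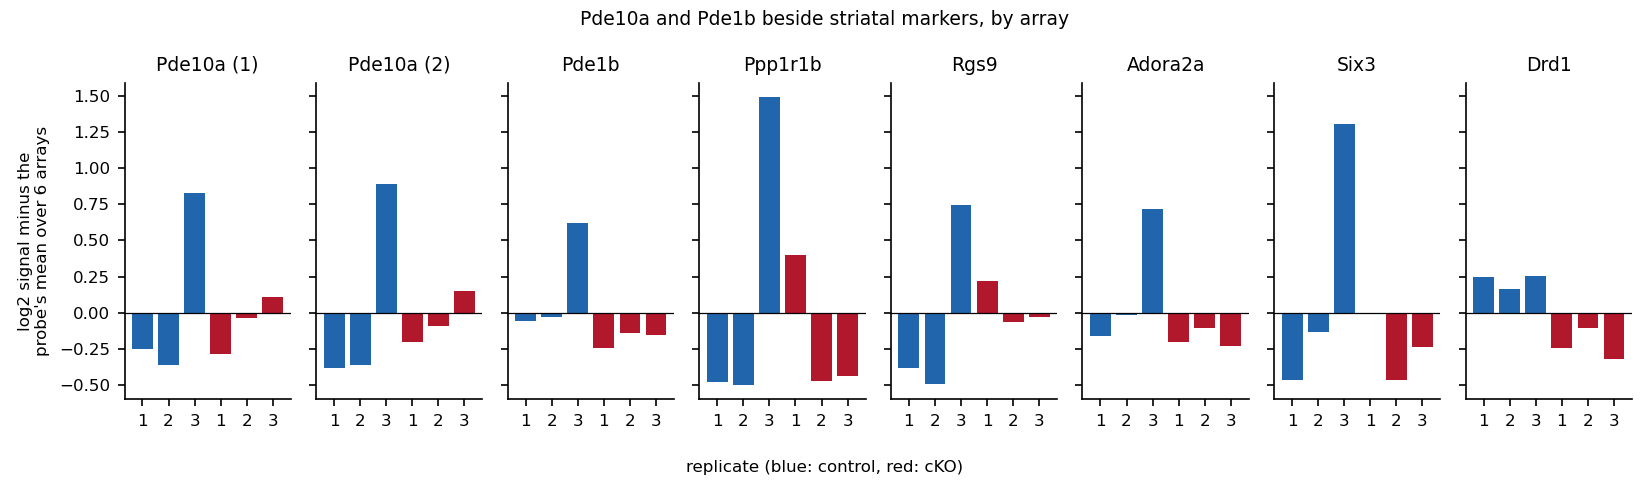
Log2 signal minus the probe's mean over the 6 arrays (y axis), by replicate, for the 2 tested Pde10a probes, Pde1b and 5 striatal markers; blue bars are control arrays and red bars arrays labelled cKO. Control replicate 3 is the highest bar for Pde10a, Pde1b, Ppp1r1b, Rgs9, Adora2a and Six3, while Drd1 is similar in all 3 controls.

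The remaining cAMP-specific phosphodiesterases, Pde4a, Pde4b, Pde4c and Pde7a, gave 9 tested probes. Pde4b, a rolipram target found in neurons and glia, had 4, at 0.11, 0.10, 0.04 and -0.17. Pde4a had 2, at 0.04 and -0.08, Pde7a 2, at 0.10 and 0.08, and Pde4c 1, at -0.18. All of these overlapped between the groups.

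The effectors downstream of cAMP and cGMP gave 0 probes of 20 with an unadjusted p under 0.05, a count so small that it does not set them apart from the 6.8% of all probes. The PKA subunits differed by -0.04 to 0.17 over 8 tested probes. The catalytic subunit genes Prkaca (0.01, SE 0.12) and Prkacb (0.03 and -0.03) were within 0.05 of zero. Prkar1a, the regulatory subunit RI alpha, gave 0.17 at 1 probe, with 2.41, 2.24 and 2.27 against 2.18, 2.17 and 2.06 and no overlap, and -0.04 at its other, brighter probe. Prkar2a, the RII alpha subunit (-0.91, -0.78 and -0.83 against -0.92, -1.03 and -1.06, a difference of 0.16), and both probes of Prkar1b (0.07 and 0.10) were also above 0. A further Prkar2a probe, well above background on 1 array, was not tested.

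The cGMP-dependent kinases had negative differences with wide errors, -0.23 (SE 0.20) for Prkg1 and -0.31 (SE 0.30) for Prkg2. The brighter Creb1 probe read -1.65, -1.52 and -1.51 against -1.50, -1.44 and -1.38, a difference of -0.12 (SE 0.09) without overlap, while its other probe gave 0.05 (SE 0.22). The 3 probes of Crem, which encodes both activators and repressors of cAMP-responsive genes, gave -0.12, 0.06 and -0.01. The Epac genes Rapgef3 and Rapgef4 differed by 0.07 (SE 0.10) and -0.10 (SE 0.26). The anchoring protein genes Akap5 and Akap12 gave -0.21 (SE 0.16) for the former, and 0.14 and -0.01 at the 2 probes of the latter.

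The 95% interval of the difference had a median half-width of 0.33 on the log2 scale over the 64 probes. For 41 of them it lay wholly within 0.5 on either side of 0, and for 57 within 1, so that a 2-fold difference lay outside it. The other 7 were the brighter Pde8b probe, Pde7b and Adcy8, whose intervals lay wholly below 0, Pde8a, whose signal in the arrays labelled cKO is only a bound and whose interval is therefore not read, and Pde1a, the dimmest Pde1c probe and Prkg2, whose intervals held 0.

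**Figure D4:**
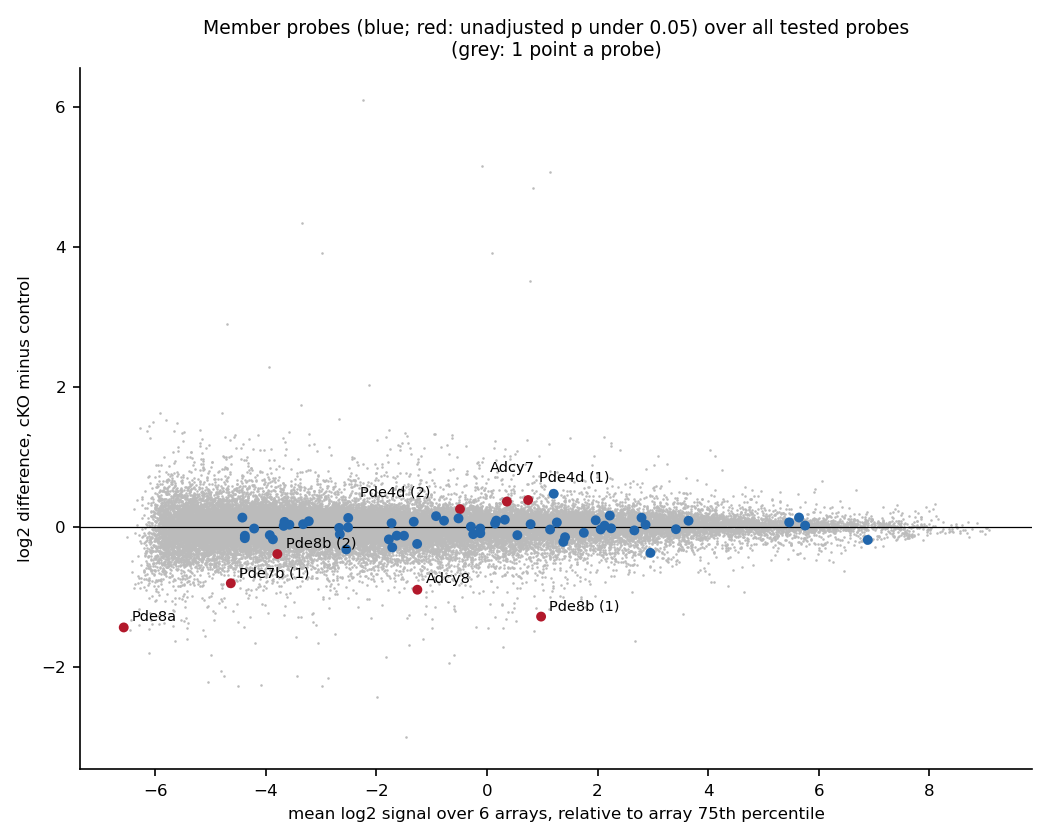
Log2 difference between the groups (y axis) against the mean log2 signal over the 6 arrays (x axis) for the 50030 tested probes (grey) and the 64 member probes (blue, or red for an unadjusted p under 0.05). The brighter Pde8b probe and Adcy8 lie below most probes of similar signal, Pde8a and Pde7b lie among dim probes, where differences spread more widely, and most members lie near 0.

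Probes of the same gene could be compared for 16 members. They differed in sign or by more than 0.5 for 12 of these genes, but for most the differences were small on either side of 0. Pde4b, for example, read -3.82, -3.84 and -4.20 against -3.74, -3.83 and -3.79 at its dimmest probe and 0.60, 0.35 and 0.18 against 0.39, 0.31 and 0.10 at its brightest. The probes lay furthest apart for Pde8b (0.89), then for Pde4d (0.51) and Pde4b (0.28).

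**Figure D5:**
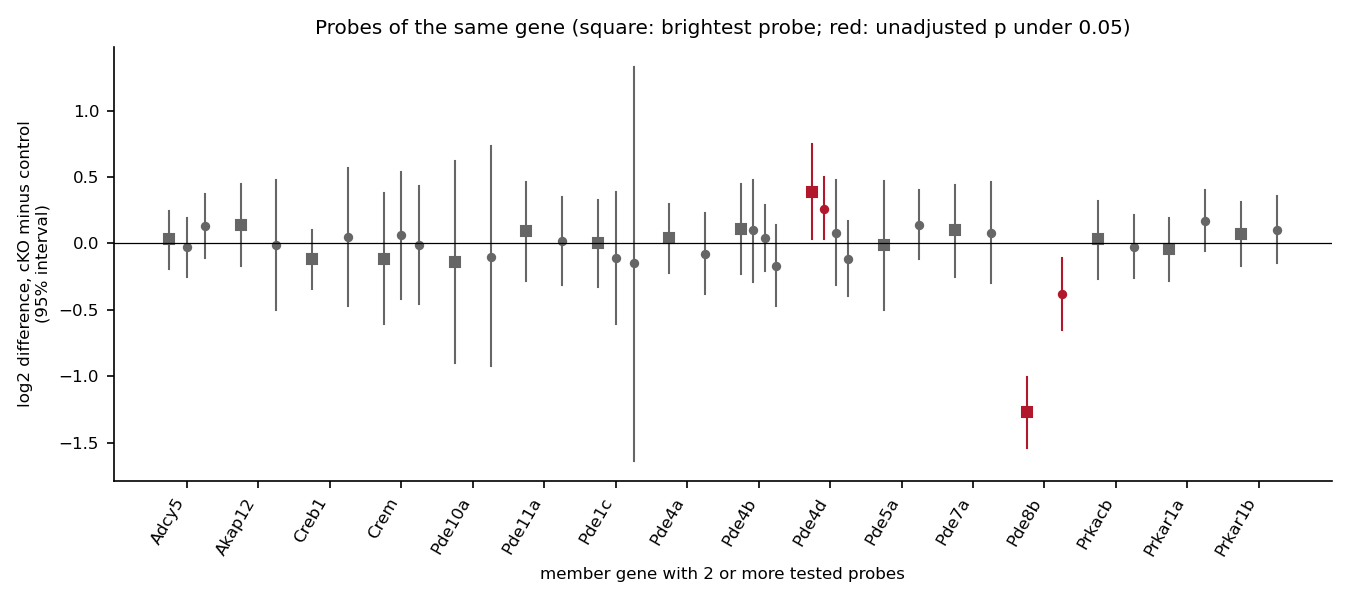
Log2 difference between the groups with its 95% interval (y axis) for each tested probe of the 16 member genes with 2 or more; squares mark a gene's brightest probe and red an unadjusted p under 0.05. The 2 intervals of Pde8b, -1.54 to -1.01 and -0.65 to -0.11, do not overlap.

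A further 71 genes of the pathway were listed: other cyclases and receptors of natriuretic peptides, G proteins that act on adenylyl cyclase, retinal phosphodiesterases, other PKA subunits and inhibitors, anchoring proteins, effectors and partners of CREB. Of these, 70 had tested probes, 111 in all. By limma 0 passed over all probes, and 7 (6.31%, 5 higher and 2 lower) had an unadjusted p under 0.05, close to the 6.8% of all probes. Their median difference was 0.04.

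Pkia, an inhibitor peptide of the PKA catalytic subunit, read 3.74, 3.84 and 3.78 in the arrays labelled cKO, against 3.34, 3.51 and 3.25 in control (log2 difference 0.42, unadjusted p = 0.0054, adjusted p = 0.42). Of the 3 probes of Rapgef6, a Rap exchange factor, 2 differed by 0.41 and 0.36 without overlap and the other by 0.20 with overlap. A Rapgef2 probe differed by 0.30. Npr3, the clearance receptor of natriuretic peptides, differed by 0.53, and Npr1, a receptor guanylyl cyclase, by -0.49 with overlapping groups, at a probe well above background on 1 of 3 arrays labelled cKO and 3 of 3 controls, so that this value lies near the floor. Adcy1, another calcium-stimulated cyclase and the gene of the barrelless mouse, read 4.65, 4.82 and 4.67 against 5.06, 5.03 and 4.78. Its difference was -0.24 (SE 0.11, adjusted p = 0.80, limma) with overlapping groups. The 3 probes of Prkar2b, the RII beta subunit of PKA, gave -0.03, 0.08 and 0.09. Adcy1 and Prkar2b were named after their values were seen.

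Promoter sequence of RefSeq (GRCm38.p6, 1 window around each annotated start, most of it upstream) was matched to 32 of the 41 genes, in 70 windows. The palindrome TAATTA, the core that homeodomain proteins of the LIM class bind, occurred in 5.29% of all 32851 windows and in 1 member window, that of Pde7b. The stretch around it, all before the start, lay at chr10:20548428-20548553 on the minus strand and is printed with the motif in capitals because Pde7b is among the 6 genes above.
Pde7b: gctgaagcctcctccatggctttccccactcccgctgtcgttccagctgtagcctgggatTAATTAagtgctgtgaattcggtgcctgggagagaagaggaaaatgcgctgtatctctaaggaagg
The full cAMP response element TGACGTCA, also a palindrome, occurred in 1.79% of all windows and in 2 member windows, both of Prkar1a. A match describes the letters of the window and not binding.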

How the data were processed

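Total RNA of 6 samples was hybridised to 1-colour Agilent arrays of 60-base probes. The deposited scanner files hold the intensity of each spot on a linear scale, background-subtracted by Feature Extraction 10.5.1.1 with the array annotated on mm9, per the file headers. The deposited value table holds log2 values of the same arrays. Its direction and centring are not given in the sources used here; 95% of its values lay within 0.00859 of quantile-normalized log2 signals centred on each probe's median, its column medians ran from -0.0064 to 0.00645, and it served as an alternative.

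Control spots and outlier-flagged spots (112 to 198 an array) were left out. Each log2 processed signal was taken relative to the array's 75th percentile (891.7 to 1066.8), and spots of a probe were averaged. The 50030 of 55681 probes well above background on at least 3 arrays were tested, each probe on its own, with limma 3.58.1 (lmFit and eBayes, R 4.3.3) and Benjamini-Hochberg adjustment over all of them, at an adjusted p of 0.05. The fit was tested on simulated data. The members and lists were chosen with earlier results of these data known. Values are given by array for member probes with an unadjusted p under 0.05 and for other probes of those genes; other pathway genes are named at an unadjusted p under 0.05, and some genes and sequences are not reported here. Further members are given by array where 1 library decides a value or the groups do not overlap, chosen after their values were seen. The alternatives covered background correction, normalization, filters, the unit and variance model of the test, slide position, Y-linked signal, the replicate block and leaving out each array; the slide side and leaving out 2 arrays with Y-linked signal were chosen after seeing the data. Array gene names matched RefSeq symbols for 61 of 68 member probes; 2 are now renamed (Gucy1a3 and Gucy1b3) and 5 were not matched.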

Additional observations from a re-analysis of the deposited data

How the results depend on the processing

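By limma with Benjamini-Hochberg adjustment, 0 member probes passed as reported. With normexp background correction followed by the 75th percentile or by quantile normalization, 2 passed (the brighter Pde8b probe and Adcy8). The same 2 passed with variances that follow intensity and are estimated robustly, and 1 (Pde8b) at an adjusted p of 0.10. Over all 50030 probes these settings called 91, 84, 119 and 37, against 0 as reported. Over the 23 alternatives the difference of Pde8b ran from -1.34 to -0.83 and that of Adcy8 from -0.97 to -0.77. Leaving aside fits that rest on 1 array of a group, adjusted p (limma) ran from 0.0048 to 0.41 for Pde8b. For Adcy8 it ran from 0.018 to 0.55. The -0.83 was for the mean of the 2 Pde8b probes, and the brighter probe alone ran from -1.34 to -1.21. The 8 member probes with an unadjusted p under 0.05 became 5 with normexp and the 75th percentile and 4 with a term for Y-linked signal. They became 5 without the 2 Y-positive control arrays (a setting chosen after seeing the data), and 6 to 9 with 1 array left out, where 0 passed. With the mean of a gene's probes the count was 5 of 41 genes. The same share over all probes was not counted under these alternatives. The counts are therefore not read as a change particular to the members. Against control replicate 2 alone, with the Y-linked term or without the 2 Y-positive arrays, the third brightest Pde4d probe turned from 0.08 to -0.17. With 1 array left out it ran from -0.10 (without control replicate 3) to 0.21 (without control replicate 2). The cause was not tested for any of these. Same-numbered samples deviated from their group means with correlations of -0.17, 0.07 and 0.16. With 3 samples a group these cannot decide whether the numbers pair the samples, and the labels do not say. With the replicate block 0 member probes passed and 8 had an unadjusted p under 0.05. In that fit the brighter Pde8b probe was -1.27 (adjusted p = 0.41, limma) and Adcy8 -0.89 (0.49). A slide or scan block could not be fitted, since 1 slide held all arrays. Signal near background limits Pde8a, Pde7b and the dimmer Pde8b probe.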
